A study of Mus musculus with 12 samples.

Results

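miR-126a, miR-221 and miR-222 are microRNAs (miRNAs) known from the cells that line blood vessels, and they were followed here as circulating RNA in mouse serum. The members were chosen by their miRBase accession: miR-126a-5p (MIMAT0000137), miR-126a-3p (MIMAT0000138), miR-221-3p (MIMAT0000669) and miR-222-3p (MIMAT0000670). Of these 4 entries, 3 were listed in every library, among 874 mouse miRNAs listed over all libraries. miR-126a-3p had no line in any of the 12 mouse tables and was taken as 0 there. The counts of hsa-miR-126-3p, from the human annotation of the same libraries, are given below in its place, with a limit stated there.

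The hairpin of miR-126 lies in an intron of Egfl7, a gene that encodes a secreted protein of endothelial cells, and both of its strands can be kept as mature miRNA. miR-126-3p represses inhibitors of the signalling of vascular endothelial growth factor, and miR-126-5p is known for supporting endothelial renewal; blood platelets carry miR-126 as well. miR-221 and miR-222 are made from neighbouring hairpins on the X chromosome, repress the receptor Kit and the cell cycle inhibitor p27, and are also found in many tumour cells. The sera were the supernatant of clotted, centrifuged blood, and the cells that released these miRNAs were not measured.

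All serum came from 3 female athymic NCr nude mice (1046, 1047 and 1069), which lack a thymus and were 4 to 6 weeks old when the xenografts were made. The mice then received xenografts of SH-SY5Y, an established human neuroblastoma line, placed beneath the capsule of the kidney. The "before" sera were drawn ahead of that injection and the "after" sera 2 weeks later, and the RNA of each serum was divided into 2 aliquots. One aliquot was depleted of 5′ tRNA fragments, which are abundant in mouse serum, with biotinylated DNA probes and streptavidin beads, and the other was left undepleted. The 12 libraries thus form 4 groups of 3: before and after in depleted aliquots, before and after in undepleted aliquots. The later draw includes no tumour-free mice, so the tumour and the elapsed time cannot be told apart. The xenograft cells are human, and the human annotation gave miR-126-5p and miR-221-3p the same counts as the mouse annotation in 12 of 12 libraries. For miR-222-3p the counts were equal in 11 of 12 libraries. Mouse and human miRNA therefore cannot be told apart in the counts of these members after injection. The depleted libraries held 938706 to 2271549 mouse miRNA counts and the undepleted ones 21235 to 97183, so single values from undepleted aliquots carry a larger counting error.

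The mature sequences of the members that RefSeq gives (3 of 4, build GRCm38.p6) are shown because the seed, bases 2 to 8 in capitals, sets which messenger RNAs a miRNA can pair with. The antisense miR-126b-5p is added because it shares its place in the genome with miR-126a-3p.
mmu-miR-126a-3p: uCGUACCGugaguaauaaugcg
mmu-miR-221-3p: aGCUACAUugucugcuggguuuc
mmu-miR-222-3p: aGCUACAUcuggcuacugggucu
mmu-miR-126b-5p: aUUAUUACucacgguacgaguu
miR-221-3p and miR-222-3p, both 23 bases long, share their first 8 bases and so the whole seed, and hold the same base at 11 positions counted from the 5′ end. Of 1679 mature miRNAs in the RefSeq table, 3 have the seed GCUACAU, the other one being miR-1928. The seed CGUACCG of miR-126a-3p was held by that miRNA alone.

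Mature miR-126a-3p lies at chr2:26591402-26591423 on the plus strand, within the Mir126a hairpin at chr2:26591357-26591429. That hairpin lies inside Egfl7 (chr2:26580014-26593120, plus strand), where it is intronic in 8 of the 9 transcripts that span it and exonic in 1, and in an intron of the overlapping gene Gm20532. Mature miR-126b-5p comes from the opposite strand, at chr2:26591399-26591420, and overlaps miR-126a-3p by 19 bases. miR-221-3p lies at chrX:19146307-19146329 and miR-222-3p at chrX:19146901-19146923, both on the minus strand. Their hairpins are 504 bases apart and overlap no other annotated gene.

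The level of each member was first described as its share of a library's mouse miRNA counts. miR-126a-5p took 0.423% to 0.761% of the counts in depleted and 0.532% to 0.868% in undepleted libraries, which placed it between rank 20 and rank 29 of the listed miRNAs. miR-221-3p took 0.165% to 0.221% in depleted and 0.145% to 0.177% in undepleted libraries. miR-222-3p ranged more widely, from 0.0923% to 0.24% in depleted and from 0.0706% to 0.218% in undepleted libraries. miR-126a-5p was the highest of the members in 12 of 12 libraries, with 2.03 to 5.86 times the counts of miR-221-3p. miR-221-3p was above miR-222-3p in 6 of 6 libraries before injection and in 2 of 6 after injection, so the order of these neighbours was not the same at both time points.

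miR-126a-5p was compared between time points, first in depleted aliquots. Its normalised counts (raw counts divided by the DESeq2 size factor of the library) before injection were 10306, 8471 and 9791 in mice 1046, 1047 and 1069. After injection they were 10885, 10396 and 10806 in the same order. The after group lay just above the before group without overlap and was the tighter one, at 10696 ± 262 against 9523 ± 946 (SD, n = 3 each). The difference did not pass the test (log2 fold change 0.16 ± 0.23 SE, DESeq2 adjusted p = 0.679). Among all 310 mouse miRNAs tested in depleted libraries, 10.6% were called (adjusted p below 0.05 and at least 2-fold), and 38.1% had groups that did not overlap. None of the 3 listed members was called. In undepleted aliquots the normalised counts of miR-126a-5p were 431, 344 and 313 before and 393, 468 and 436 after injection. Here the groups overlapped, mouse 1046 was lower after injection and the other mice were higher, and the test was not passed either (log2 fold change 0.23 ± 0.23 SE, DESeq2 adjusted p = 0.575).

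miR-221-3p showed no common direction. In depleted aliquots its normalised counts were 3229, 4177 and 2471 before and 2882, 2849 and 3304 after injection in mice 1046, 1047 and 1069. Mouse 1069 had the lowest value before and the highest after injection, whereas the other mice were lower after injection, and the groups overlapped. The log2 fold change was -0.12 ± 0.26 SE (DESeq2 adjusted p = 0.813). In undepleted aliquots it was -0.21 ± 0.28 SE (DESeq2 adjusted p = 0.648), with normalised counts of 97.2, 114 and 80.7 before and 78.0, 79.9 and 94.7 after injection. Again 1 of 3 mice, mouse 1069, was higher after injection. Without mouse 1047 the log2 fold change turned positive, to 0.14 in depleted aliquots.

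miR-222-3p was higher after injection in 3 of 3 mice in both kinds of aliquot. The aliquots share their sera and are not independent, and the share of all miRNAs with such agreement was not counted. In depleted aliquots the normalised counts of miR-222-3p were 1965, 2381 and 1381 before and 2358, 2539 and 3590 after injection. The lowest after value, of mouse 1046, lay just under the highest before value, of mouse 1047, so the groups overlapped by a narrow margin. The log2 fold change was 0.52 ± 0.28 SE, a 1.44-fold difference (DESeq2 adjusted p = 0.192). In undepleted aliquots the normalised counts were 51.7, 71.1 and 34.6 before and 78.8, 98.6 and 118 after injection. These groups did not overlap, as was the case for 39.8% of the 108 miRNAs tested in undepleted libraries, of which 11.1% were called. The log2 fold change of miR-222-3p was 0.77 ± 0.32 SE, 1.70-fold, with a 95% interval of 0.15 to 1.39 (DESeq2 adjusted p = 0.0653; 19.4% of the tested miRNAs were under 0.05). It was thus not called, and neither were the other listed members in undepleted aliquots. In both kinds of aliquot mouse 1069 had the largest difference, and without it the log2 fold change of miR-222-3p dropped to 0.18 in depleted and 0.44 in undepleted aliquots. The undepleted before value of miR-222-3p in mouse 1069 rests on 15 counts in the smallest library. The human tables list the same miRNA with counts that differed by 1 count in total, and there the undepleted difference had an adjusted p under the threshold (log2 fold change 0.81 ± 0.31 SE, DESeq2 adjusted p = 0.0416, a threshold that 23.6% of the 89 human-annotated miRNAs passed). It was still under 2-fold.

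**Figure D1:**
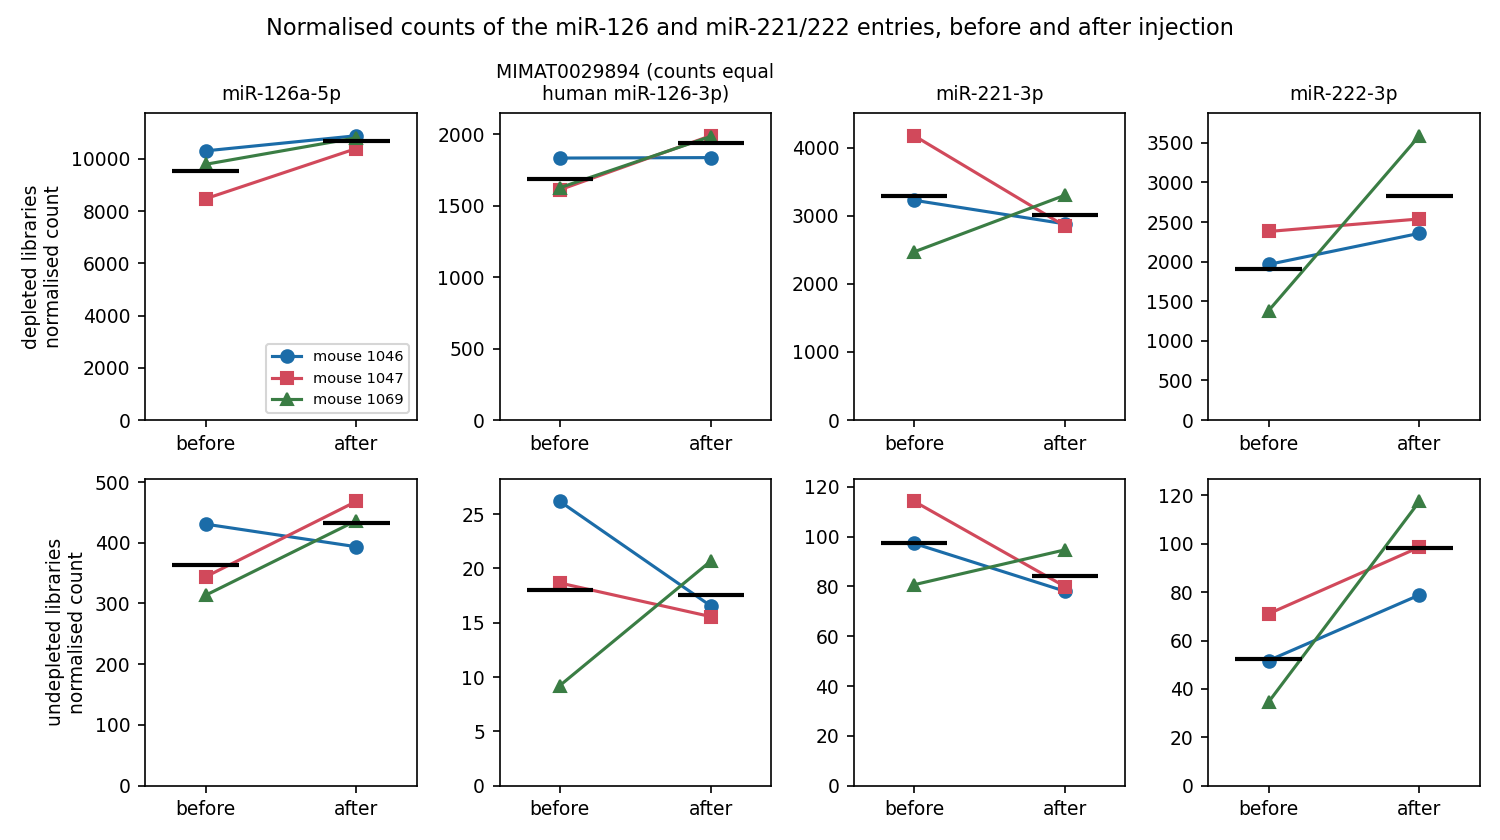
Normalised counts (y axes, starting at 0, one scale per panel) before and after injection for miR-126a-5p, MIMAT0029894, miR-221-3p and miR-222-3p, with depleted libraries above and undepleted libraries below; each line is 1 mouse and each black bar a group mean (n = 3). miR-222-3p lies higher after injection on all 3 lines of both rows, with means of 1909 before and 2829 after in depleted and 52.5 and 98.3 in undepleted libraries, but without passing the test, whereas the lines of miR-221-3p run in different directions.

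Since miR-221-3p and miR-222-3p were counted in the same library, their ratio needs no scaling for depth. Before injection miR-221-3p had 1.64, 1.75 and 1.79 times the counts of miR-222-3p in the depleted aliquots of mice 1046, 1047 and 1069. After injection the ratios were 1.22, 1.12 and 0.92. All after values were below all before values, the mean ratio being 1.09 ± 0.15 after against 1.73 ± 0.08 before injection (SD, n = 3 each). Among single miRNAs, 38.1% of the 310 tested in depleted libraries had groups that did not overlap. The share among ratios of other miRNA pairs was not computed. The log2 ratio differed by -0.68, or 0.626-fold, and was lower after injection in 3 of 3 mice (exact permutation test, two-sided, p = 0.1, the smallest value that 3 against 3 can give). The undepleted aliquots of the same sera gave 1.88, 1.61 and 2.33 before and 0.99, 0.811 and 0.806 after injection. Here too the groups were apart, at 0.869 ± 0.105 after against 1.94 ± 0.37 before injection (SD, n = 3 each). For single miRNAs in undepleted libraries this held for 39.8% of the 108 tested. The log2 ratio differed by -1.12, 0.459-fold (exact permutation test, two-sided, p = 0.1). Adjusted over the 6 ratio tests made, both p-values were 0.2 (exact permutation tests), so neither difference can be called at this sample size. The aliquots share their sera and are not independent of each other.

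The counts behind these ratios set their precision. In depleted aliquots miR-221-3p made up 62.2% of the 3883 counts of both miRNAs in mouse 1046 before injection (95% Wilson interval 60.6% to 63.7%) and 55.0% of 6529 after injection (53.8% to 56.2%). In the smallest library, the undepleted first serum of mouse 1069, both miRNAs together had 50 counts, and the share of miR-221-3p was 70.0% with an interval of 56.2% to 80.9%. The after value of that mouse was 44.6% of 195 counts (37.8% to 51.6%), which does not reach into the interval of the first serum. These intervals cover counting error only, as the reads carry no molecular identifiers.

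**Figure D2:**
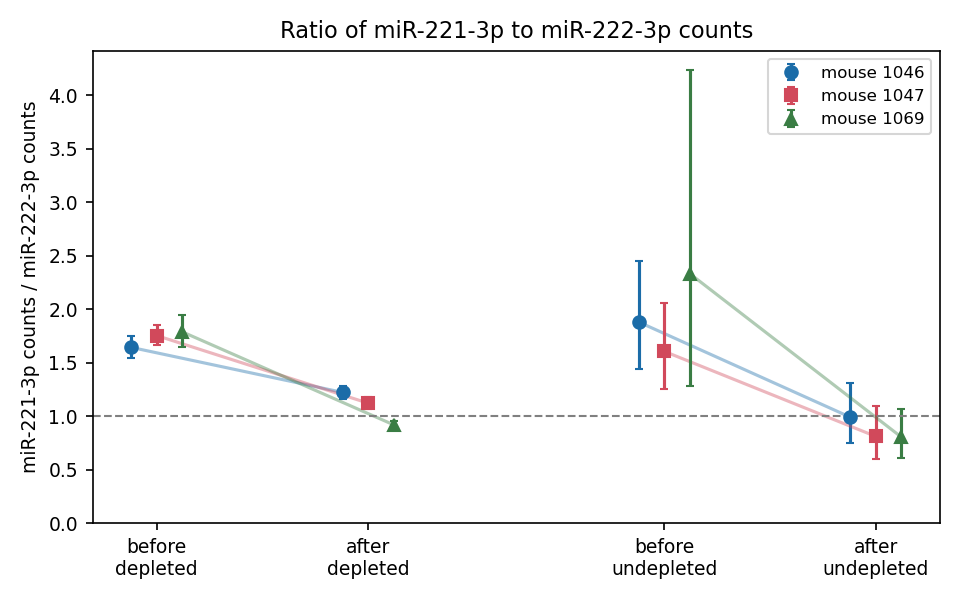
Ratio of miR-221-3p to miR-222-3p counts (y axis) in each of the 12 libraries by group; lines join the sera of 1 mouse, error bars are 95% Wilson intervals turned into ratios, and the dashed line marks equal counts. The depleted ratios lie at 1.64 to 1.79 before and 0.92 to 1.22 after injection, and the undepleted ratios at 1.61 to 2.33 before and 0.806 to 0.99 after injection.

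The ratio of the strands of miR-126 could not be formed from the mouse entries, because miR-126a-3p was at 0 in all of them. The human tables list both strands, hsa-miR-126-5p (MIMAT0000444) and hsa-miR-126-3p (MIMAT0000445). hsa-miR-126-5p had the same count as mouse miR-126a-5p in 12 of 12 libraries. hsa-miR-126-3p had 11689 counts over all libraries, including those of sera drawn before any human cells were given, and its counts equalled in every library those of exactly 1 mouse entry, MIMAT0029894. The files do not pair that accession with a name, and it was chosen after its values were seen. Whether reads were counted by strand is not given in the sources used here, so miR-126a-3p and the antisense miR-126b-5p printed above cannot be told apart in such counts. Below, the 3p strand and miR-126-3p stand for the counts of hsa-miR-126-3p, with this limit.

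The 5p strand was the more abundant in 12 of 12 libraries of the human tables. In depleted aliquots it had 5.62, 5.26 and 6.02 times the counts of the 3p strand before injection and 5.93, 5.22 and 5.45 times after injection, in mice 1046, 1047 and 1069. These groups overlapped (log2 difference -0.025, exact permutation test, two-sided, p = 0.7, adjusted over the 6 ratio tests 0.7). Without mouse 1069 the log2 difference was 0.034, of the opposite sign. In undepleted aliquots the ratios were 16.5, 18.4 and 34.0 before and 23.8, 30.1 and 21.1 after injection. They overlapped as well (log2 difference 0.24, exact permutation test, two-sided, p = 0.4, adjusted over the 6 ratio tests 0.6). This difference was 0.026 without mouse 1047, 0.11 without mouse 1046 and 0.58 without mouse 1069. MIMAT0029894 itself had 1834, 1612 and 1626 normalised counts before and 1837, 1990 and 1984 after injection in depleted aliquots. These groups lay just clear of each other, as did those of 38.1% of the 310 miRNAs tested in depleted libraries. The log2 fold change of 0.19 ± 0.23 SE did not pass the test (DESeq2 adjusted p = 0.621). In undepleted aliquots, with 26.2, 18.7 and 9.22 before and 16.6, 15.6 and 20.7 after injection, it was -0.09 ± 0.43 SE (DESeq2 adjusted p = 0.908). The largest strand ratio rests on 4 counts of the 3p strand in the smallest library.

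Between aliquots of the same serum the strand ratio differed in every case. The 3p strand made up 14.2% to 16.1% of the miR-126 counts in depleted aliquots and 2.86% to 5.73% in undepleted ones. The 95% Wilson intervals of the aliquots did not meet, the lowest bound in depleted aliquots being 13.5% and the highest in undepleted ones 7.65%. The log2 5p to 3p ratio was lower after depletion by a mean of -1.95 ± 0.32 (SD, n = 6 sera), 0.258-fold, in 6 of 6 sera (exact sign-flip permutation test, two-sided, p = 0.03125, the smallest value that 6 pairs can give). Adjusted over the 6 ratio tests this p-value was 0.1875 (exact test). It did not pass the correction, but no result could have, given the smallest p-values that these tests can give. The adjusted value therefore does not decide the question. The 6 sera come from 3 mice, and leaving out 1 mouse at a time gave log2 differences of -2.07 to -1.88.

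**Figure D3:**
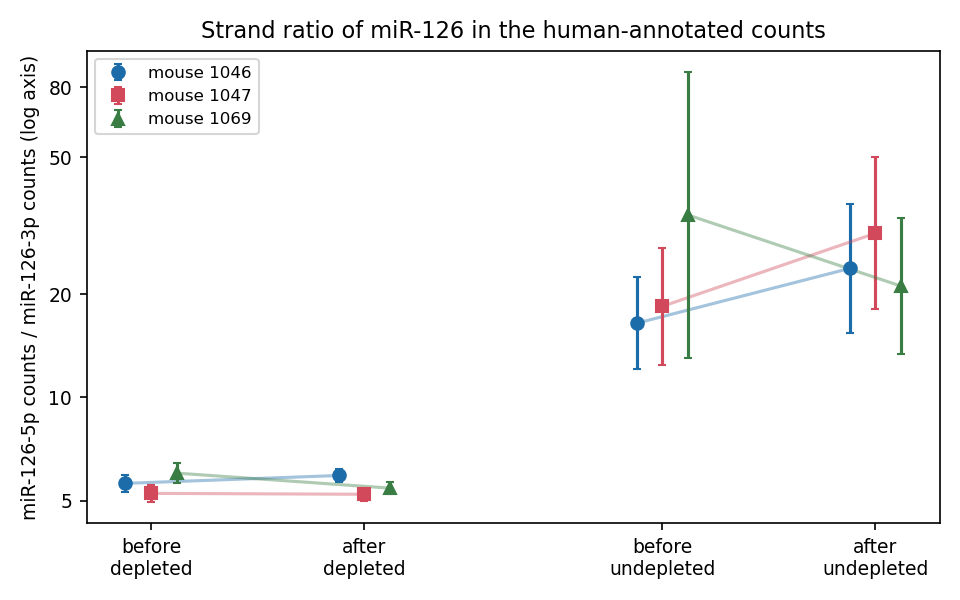
Ratio of hsa-miR-126-5p to hsa-miR-126-3p counts (log y axis) from the human tables in each of the 12 libraries by group. Lines join the sera of 1 mouse and error bars are 95% Wilson intervals turned into ratios. Depleted libraries lie between 5.22 and 6.02 and undepleted libraries between 16.5 and 34.0, with no ordering by time point.

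The single strands were then followed through the depletion in a fit of all 12 libraries, in which normalised counts are on a scale of their own. MIMAT0029894, the mouse entry with the counts of miR-126-3p, had 50.4, 97.5 and 145 normalised counts (lowest, median and highest of 6) in undepleted and 271, 331 and 384 in depleted aliquots. The groups did not overlap, which 9.4% of the 383 miRNAs tested shared, and it was higher after depletion in 6 of 6 sera. Its log2 fold change was 1.61 ± 0.18 SE, 3.04-fold (DESeq2 adjusted p = 6.60e-17), which put it among the 8.36% of tested miRNAs that were called and the 4.96% that were called higher. That fit took the aliquots of a serum as separate samples. With a serum block, which pairs them, the log2 fold change of MIMAT0029894 was 1.62 (DESeq2 adjusted p = 3.34e-17). In the fit without the block, the human entry hsa-miR-126-3p gave 1.62 ± 0.19 SE (DESeq2 adjusted p = 2.24e-16), with 5.56% of 414 human-annotated miRNAs called.

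miR-126a-5p went the other way by a small amount. It had 1713, 2305 and 2642 normalised counts (lowest, median and highest of 6) in undepleted and 1424, 1892 and 2093 in depleted aliquots. The groups overlapped, but the depleted aliquot was lower in 6 of 6 sera (log2 fold change -0.29 ± 0.10 SE, DESeq2 adjusted p = 0.0327). A difference under 2-fold was not called, and 14.4% of tested miRNAs passed the adjusted p alone. The difference depended on the scaling. With TMM factors the median log2 fold change of all tested miRNAs moved up by 0.23. That of miR-126a-5p moved to -0.027 (DESeq2 adjusted p = 0.927). With the serum block, which pairs the aliquots and keeps the first scaling, it was -0.29 (DESeq2 adjusted p = 4.81e-05). Over all alternatives this was the lowest adjusted p, and the highest was 0.935, in edgeR. MIMAT0029894 kept its direction with TMM factors, at 1.85.

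miR-221-3p and miR-222-3p showed no called difference between aliquots. miR-221-3p had 441, 494 and 618 normalised counts (lowest, median and highest of 6) in undepleted and 413, 554 and 702 in depleted aliquots. It was higher after depletion in 5 of 6 sera (log2 fold change 0.15, 95% interval -0.16 to 0.46, DESeq2 adjusted p = 0.668). miR-222-3p had 189, 416 and 677 in undepleted and 231, 417 and 695 in depleted aliquots, nearly the same spread. Its log2 fold change was 0.033 (95% interval -0.37 to 0.44, DESeq2 adjusted p = 0.932). The ratio of miR-221-3p to miR-222-3p differed by 0.096 ± 0.300 on the log2 scale (SD, n = 6 sera) and was higher after depletion in 4 of 6 sera (exact sign-flip permutation test, two-sided, p = 0.5, adjusted over the 6 ratio tests 0.6).

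**Figure D4:**
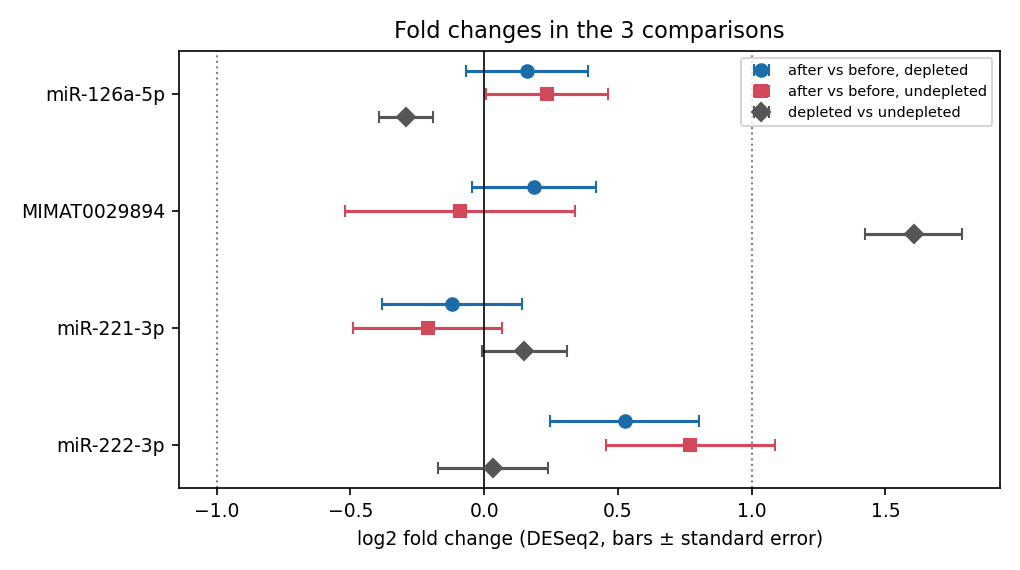
DESeq2 log2 fold changes (x axis) with their standard errors for the entries of miR-126, miR-221 and miR-222 in 3 comparisons, after against before injection in depleted and in undepleted libraries and depleted against undepleted; dotted lines mark a 2-fold change. MIMAT0029894 stands past the 2-fold line in the depletion comparison, at 1.61, and the next largest value is 0.77 for miR-222-3p in undepleted libraries.

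Whether the change with time differed between depleted and undepleted aliquots was tested as an interaction. It was called for 0 of 874 miRNAs (0.0%), and for 0 in edgeR and with the serum block. An unadjusted p under 0.05 was reached by 3 in DESeq2, 8 in DESeq2 with the block and 11 in edgeR. These are fewer than that threshold gives without any difference, so the tests were conservative. For the members the interaction was 0.014 for miR-126a-5p, with a 95% interval of -0.42 to 0.45 on the log2 scale. It was 0.19 for miR-221-3p (-0.45 to 0.84) and -0.20 for miR-222-3p (-1.06 to 0.67). For MIMAT0029894 it was 0.50 (-0.21 to 1.21). These intervals are wide against the time differences themselves.

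How alike the members ran over the 6 depleted libraries was described by the root-mean-square difference of their centred log2 profiles from those of 212 other miRNAs whose mean was 50 normalised counts or more. The nearest to miR-221-3p were MIMAT0004825 (0.113), MIMAT0003127 (0.122) and MIMAT0000649 (0.131), whose names the files do not give. miR-222-3p, its neighbour in the genome, stood at place 72 with 0.361, against a median of 0.476 over all others. For miR-126a-5p the nearest of 212 was MIMAT0029894 (0.0789), the entry with the counts of miR-126-3p.

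Among miRNAs known from blood cells only miR-16-5p (MIMAT0000527), abundant in red blood cells, could be matched to an accession. Its normalised counts in depleted aliquots were 227178, 251137 and 162379 before and 110238, 96929 and 84143 after injection. It was lower after injection in 3 of 3 mice (log2 fold change -1.07 ± 0.25 SE, DESeq2 adjusted p = 0.000882), and also in undepleted aliquots, where the difference was under 2-fold and not called (-0.95 ± 0.24 SE, DESeq2 adjusted p = 0.000907). It was lower in depleted than in undepleted aliquots of 6 of 6 sera too (-0.56 ± 0.16 SE, DESeq2 adjusted p = 0.00525), again under 2-fold and not called. With TMM factors, applied to miR-16-5p after seeing the data, the latter value was -0.29 and did not pass the test (DESeq2 adjusted p = 0.380). In edgeR it was -0.30 (edgeR adjusted p = 0.543). The part of miR-16-5p in the levels of the members was not tested.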

How the data were processed

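Small RNA of mouse serum was sequenced (TruSeq small RNA kit, 15 PCR cycles, RNA of 50 µl serum). For each library the authors deposited 2 tables, 1 of mouse and 1 of human miRNAs, that hold raw read counts. The authors trimmed adaptors (Cutadapt 1.8.1), removed reads of low quality, mapped without mismatches (Bowtie 1.1.2) to GRCm38/mm10 and GRCh37/hg19 and assigned reads by miRBase coordinates, so 1 read can be counted in both tables. The treatment of multi-locus reads and of strand is not given in the sources used here. An entry without a line was taken as 0.

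Counts were fitted with DESeq2 1.42.0 (R 4.3.3) across all listed miRNAs: Wald test with the zero-centred prior, which shrinks fold changes, median-of-ratios size factors, independent filtering, and Benjamini-Hochberg adjustment over all tested miRNAs. A call needed an adjusted p under 0.05 and at least a 2-fold change. Time points were compared separately in depleted and undepleted libraries, depletion in all 12 libraries with time point as a covariate, and the interaction without the prior. Ratios used log2 of raw counts plus a pseudocount of 1, tested by exact permutation (3 against 3) or sign-flip over 6 sera in SciPy 1.17.1; printed ratios have no pseudocount. The DESeq2 and edgeR fits of time and depletion were also run on simulated counts with known changes. Those counts were drawn without pairing by mouse or serum, and the outcome is not given here. Alternatives were edgeR 4.0.16 (quasi-likelihood, TMM), TMM factors in DESeq2, a filter (at least 4 counts in at least 3 libraries), no prior, a mouse or serum block, a pseudocount of 0.5, the human tables, and leaving out each mouse.

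Sera with the same number come from 1 mouse (labels), which pairs them; correlations of their deviations from the group means ran from -0.415 to 0.101, those of aliquots of 1 serum from 0.430 to 0.617. Named were all members, their human entries and, for miR-126a-3p and miR-221-3p, the 3 nearest profiles; this could not be done for miR-126a-3p, and the profile of miR-126a-5p was added after its values were seen, as were MIMAT0029894 and the human-table fold changes. The members and lists were chosen with earlier results of these data known. Lists of 20 vessel-linked and 12 blood cell miRNAs were named, but no table used here pairs names with accessions, so no member of the first list and only miR-16-5p of the second could be matched. Sequences and the positions of mature miRNAs and hairpins are from RefSeq, and overlapping genes and transcripts from GENCODE (GRCm38.p6). Separate sera are separate draws of 3 mice. The main DESeq2 fit of depletion took the 12 libraries as separate samples, without serum as a covariate. Its p-values therefore ignore that the aliquots of a serum are paired. The spread between sera stays in the residual spread against which depletion was tested. The main time comparisons took both draws of a mouse as independent samples. Only the fits and tests with a mouse or serum block, and the sign-flip tests over sera, used the pairing.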

Additional observations from a re-analysis of the deposited data

How the results depend on the processing

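Of 108 alternative values of the fold changes of miR-126a-5p, MIMAT0029894, miR-221-3p and miR-222-3p, 103 kept their direction and their side of the call. The others changed sign: miR-221-3p without mouse 1047 (0.14 in depleted and 0.0045 in undepleted aliquots, with ranges over mice left out from -0.35 and from -0.38), MIMAT0029894 in undepleted aliquots without mouse 1046 (0.22) or 1047 (0.012; range from -0.32), and miR-222-3p in the depletion comparison without mouse 1046 (-0.028; range up to 0.15). The undepleted fold change of miR-222-3p had a DESeq2 adjusted p of 0.0425 with the filter and 0.0463 without the prior, but 0.175 in edgeR, over a range of 0.0416 to 0.819, and was under 2-fold throughout. The depletion fold change of MIMAT0029894 ranged from 1.53 to 1.90 and was called in every alternative.

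The mouse tables give no strand ratio of miR-126, since 1 strand is at 0; the planned log2 values (0.98 depleted, 0.33 undepleted, 4.65 depletion) follow the 5p counts. With the human tables they were -0.025, 0.24 and -1.95, and without 1 mouse each these ran from -0.076 to 0.034, from 0.026 to 0.58 and from -2.07 to -1.88. Without 1 mouse each, the mouse-table values ran from 0.76 to 1.12, from -0.28 to 0.73 (negative without mouse 1069) and from 4.26 to 4.91, where 4 pairs cannot give an exact p under 0.125. The miR-221 to miR-222 log2 ratio ran from -0.80 to -0.54 in depleted, from -1.23 to -0.95 in undepleted aliquots and from -0.0061 to 0.18 between aliquots, negative without mouse 1047.

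The calls over all miRNAs depended on single mice: 33 in depleted libraries fell to 11 without mouse 1047 and 19 without mouse 1069 (range 11 to 32), 12 in undepleted libraries to 1 and 7 (range 1 to 11), and 32 in the depletion comparison to 19 without mouse 1046 (range 19 to 33). Adjusted p alone gave 52, 21 and 55. The depletion calls were 19 higher and 13 lower, but 32 and 10 with TMM factors and 34 and 10 in edgeR. With the replicate block, pairing sera by mouse or aliquots by serum, 26, 11, 27 and 0 (interaction) miRNAs were called, the miR-221 to miR-222 differences kept their values of -0.68 and -1.12 with an exact p of 0.25, the smallest for 3 pairs, and no call of a member changed. Depth limits the undepleted values, where MIMAT0029894 had 4 to 42 counts.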
